A study of Gallus gallus with 8 samples.

Results

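The muscle atrophy ligases and FOXO genes are a set of 9 genes, *FBXO32*, *TRIM63*, *FBXO30*, *NEDD4*, *TRIM54*, *TRIM55*, *FOXO1*, *FOXO3*, and *SQSTM1*, which were chosen by name. Of these, 8 are among the 17775 genes of the count table and the 15394 genes of the FPKM-UQ table, and all 8 were among the 14311 genes tested. *FOXO3* was not matched to a listed symbol and is not analysed here. Bulk RNA sequencing covered engineered chick muscle tissues, 5 of them 7 days after the onset of differentiation (week 1) and 3 of them 21 days after it (week 3). All 8 tissues were grown on gelatin hydrogels crosslinked with transglutaminase, from myoblasts of the thighs of E10 chick embryos, in low-serum differentiation media. They held no motor neurons and received no agent that differed between the weeks. The tissues are named here by week and replicate number, from 1-1 to 1-5 and from 3-1 to 3-3. The labels do not say whether the tissues shared a myoblast harvest, so the p-values measure the spread between these tissues, and harvest and week cannot be told apart.

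Skeletal muscle breaks down its proteins through the ubiquitin-proteasome system, in which a ubiquitin ligase selects the protein to be degraded, and through autophagy, in which cargo is enclosed and delivered to lysosomes. In mammals, *FBXO32* (atrogin-1) and *TRIM63* (MuRF1) are muscle ligases known for their induction in atrophy, and FOXO transcription factors switch them on when insulin and AKT signaling is low. *SQSTM1* encodes p62, a receptor that carries ubiquitin-tagged cargo to autophagosomes. Proteins of the MuRF family also bind titin and other parts of the sarcomere, where they take part in its upkeep.

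All 8 genes had a higher fitted level at week 3 than at week 1, with log2 fold changes between 0.16 and 0.47. The rise passed an adjusted p of 0.05 for 4 of them, *TRIM54*, *SQSTM1*, *FOXO1*, and *TRIM63*, in edgeR's quasi-likelihood test with Benjamini-Hochberg (BH) adjustment over the 14311 genes tested. SE denotes the fitted change's standard error. For comparison, 11.5% of all genes tested were called higher at week 3, 12.0% lower, and 23.5% in either direction. None of the 8 was called lower, and the number lower was 0 at an unadjusted p below 0.05 and 0 in DESeq2 as well. The changes were small: the study's definition of a changed gene, which asks for more than 1.5-fold at a p under 0.05 without adjustment, called 0 of the 8 genes in the same edgeR fit, against 14.6% of all genes and 7.22% higher. Without that fold change, 6 of the 8 genes had an unadjusted p below 0.05. The weeks did not overlap in FPKM-UQ for 5 of the 8 genes, with week 3 on top in each. Of the 13392 genes that averaged 1 FPKM-UQ or more, 16.6% had week 3 wholly above week 1 and 14.1% wholly below. The median log2 fold change of all genes tested was −0.0065.

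**Figure D1:**
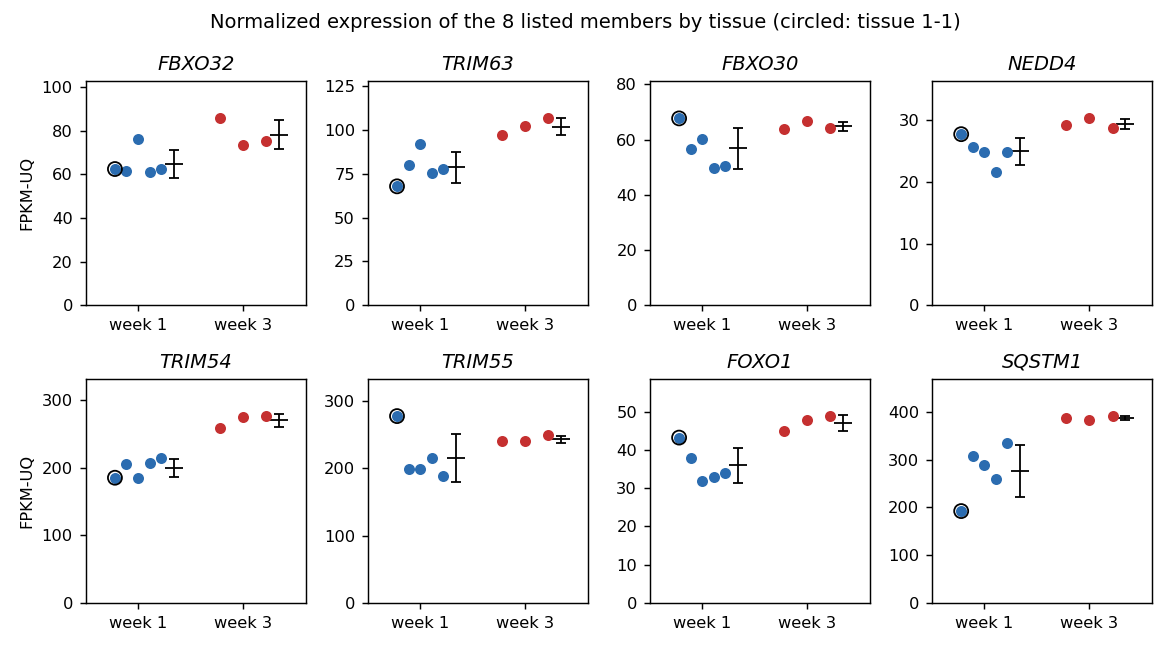
Normalized expression (FPKM-UQ, linear axis from 0) of the 8 genes in each tissue, with week 1 in blue, week 3 in red, tissue 1-1 circled, and the mean ± SD of each week in black. The weeks do not overlap for *TRIM63*, *NEDD4*, *TRIM54*, *FOXO1*, and *SQSTM1*. The spread at week 1 is wider than at week 3 for each of the 8 genes relative to its mean, which was not compared with all genes.

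The total estimated count per tissue was 14368710 to 16545497 at week 1 and 15447904 to 18902561 at week 3. The mitochondrial share of the counts was 5.52% to 6.39% at week 1 and 4.65% to 4.82% at week 3, without overlap, and its part in the results below was not tested. Normalized expression is given in FPKM-UQ, which in these files rescales each tissue's estimated counts (plus 1) by a common factor. Gene length does not enter it, so values can be compared between tissues for a gene, but not between genes. Earlier results of these data had shown that tissue 1-1 stands apart. In edgeR's normalized counts it was the highest of the week 1 tissues for 33.4% of the genes tested and the lowest for another 33.4%. Among the 8 genes, ranked by FPKM-UQ instead, it was the highest for 4, *FBXO30*, *TRIM55*, *FOXO1*, and *NEDD4*, and the lowest for 3, *TRIM63*, *TRIM54*, and *SQSTM1*. For *TRIM54* it was nearly level with tissue 1-3 (185.0 and 185.3 FPKM-UQ). Fitted changes without tissue 1-1 are therefore given for each of the 8 genes. In the edgeR fit without tissue 1-1, all 8 genes were called higher. That fit called 5498 of 14237 genes tested in either direction, 49.6% of them higher. Without tissue 3-2 or without tissue 3-3, only *TRIM54* of the 8 was called.

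Of 10 skeletal muscle markers, 5 were listed by symbol, and their summed level was 11157 to 13379 CPM (estimated counts scaled to the tissue's total) at week 1 and 10760 to 10933 CPM at week 3. *MYOD1* and *ACTN2* were called lower among these. *MYOG*, *DES*, and *TNNT3* were not called, with log2 fold changes of 0.15, 0.03, and −0.26, and *MYOG* was higher in every week 3 tissue than in any week 1 tissue. *MYMK*, *CKM*, *TTN*, *NEB*, and *RYR1* are not analysed here. The 7 fibroblast markers listed summed to 20652 CPM in tissue 1-1, 26359 to 30232 CPM in tissues 1-2 to 1-5, and 22552 to 23438 CPM at week 3. Of these markers, 1 was called higher and 4 lower. Leukocyte markers (6 of 6 listed) summed to 59.8 to 97.6 CPM at week 1 and 35.7 to 38.2 at week 3, with 1 called higher (*CD3E*) and 4 lower. Endothelial markers (6 of 6 listed, 4 tested) summed to 43.8 to 53.3 CPM at week 1 and 29.5 to 33.3 at week 3, with 0 called higher and 2 lower. Schwann cell markers summed to 45.4 to 71.3 CPM at week 1 and 53.1 to 54.3 at week 3, with no more than 8 counts of *SOX10* in any tissue. Neuron markers summed to 14.3 to 24.9 and 17.6 to 21.0 CPM. The muscle, leukocyte, and endothelial sums did not overlap between the weeks, and the fibroblast sums overlapped through tissue 1-1 alone. The part of these sums in the results for the 8 genes was not tested. In such bulk samples, fewer cells of a type and less RNA per cell cannot be told apart.

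*FBXO32* (galGal6 chromosome 2, 138061819 to 138086471, minus strand) encodes the substrate-binding F-box subunit of an SCF ligase, whose targets in mammals include MyoD and eIF3f. Its FPKM-UQ was 62.4, 61.6, 76.1, 60.9, and 62.3 in tissues 1-1 to 1-5. At week 3 it was 85.7 in tissue 3-1, 73.6 in 3-2, and 75.2 in 3-3. The weeks overlapped through tissue 1-3 alone, which lay above 2 of the week 3 tissues. The mean was 64.7 ± 6.40 (n = 5, SD) at week 1 and 78.1 ± 6.56 (n = 3, SD) at week 3, a log2 fold change of 0.26 (SE 0.09, BH-adjusted p = 0.054 by edgeR's quasi-likelihood method). The exact two-sided permutation test of FPKM-UQ over the 56 splits of 8 tissues into 5 and 3 gave p = 0.11. This test doubles the smaller tail, so with 56 splits it cannot give a p below 0.0357. The edgeR call depended on single tissues, with an adjusted p of 0.012 without tissue 1-1, 0.013 without tissue 1-3, and 0.25 without tissue 3-1, and log2 fold changes of 0.25, 0.32, and 0.18.

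*TRIM63* (chromosome 23, 3365953 to 3371498, plus strand) encodes MuRF1, a RING finger ligase that in mammals tags myosin and other thick filament proteins. Its FPKM-UQ was 67.9, 80.3, 92.2, 75.3, and 77.5 in tissues 1-1 to 1-5 and 96.9, 102, and 107 in tissues 3-1 to 3-3. The week 3 tissues lay above all of week 1, with tissue 1-3 the closest from below. The mean rose from 78.6 ± 8.89 (n = 5, SD) to 102 ± 4.87 (n = 3, SD), a log2 fold change of 0.36 (SE 0.09, BH-adjusted p = 0.012 by edgeR's quasi-likelihood method). The exact two-sided permutation test gave p = 0.0357, the smallest p possible. Without tissue 3-2 or 3-3 the adjusted p of the edgeR test was 0.052 and 0.064, and without tissue 1-1 the log2 fold change was 0.31 (adjusted p = 5.4e-04). *PDIK1L*, with at most 124 counts in a tissue, overlaps *TRIM63* on the other strand, and whether the counting used strand is not given in the sources used here.

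*FBXO30* (chromosome 3, 46644883 to 46659413, minus strand) encodes an F-box protein that is also called MUSA1 and is induced in denervated mouse muscle. In tissue 1-1 it was at 67.7 FPKM-UQ, above all week 3 tissues, while tissues 1-2 to 1-5 were between 49.7 and 60.3. The week 3 tissues lay between 63.7 and 66.7 FPKM-UQ. The log2 fold change was 0.17 (SE 0.10, BH-adjusted p = 0.24 by edgeR's quasi-likelihood method), with a 95% interval from −0.023 to 0.37. Without tissue 1-1 it was 0.24 (SE 0.07, BH-adjusted p = 0.0077 in edgeR).

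*NEDD4* (chromosome 10, 8216238 to 8265054, plus strand) encodes a HECT domain ligase of membrane proteins and receptors. Its FPKM-UQ was 27.7, 25.7, 24.8, 21.6, and 24.8 in tissues 1-1 to 1-5 and 29.2, 30.3, and 28.6 in tissues 3-1 to 3-3. The weeks did not overlap (exact two-sided permutation test, p = 0.0357, n = 5 and 3), with tissue 1-1 just below the lowest week 3 tissue. The log2 fold change was 0.22 (SE 0.09, BH-adjusted p = 0.10 by edgeR's quasi-likelihood method), which did not pass the threshold. Without tissue 1-1 it was 0.27 (adjusted p = 0.015, same edgeR test).

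The other MuRF genes differed in tissue 1-1. That tissue was the highest of week 1 for *TRIM55*, but for *TRIM54* it was nearly level with tissue 1-3 (185.0 and 185.3 FPKM-UQ). *TRIM54* (chromosome 3, 104507216 to 104512143, minus strand) encodes MuRF3, which binds microtubules. Its FPKM-UQ was 185, 205, 185, 207, and 214 in tissues 1-1 to 1-5, and 259, 275, and 276 in tissues 3-1 to 3-3. No week 1 tissue reached the week 3 range. The mean rose from 199 ± 13.3 (n = 5, SD) to 270.1 ± 9.55 (n = 3, SD), a log2 fold change of 0.43 (SE 0.07, BH-adjusted p = 9.5e-04 by edgeR's quasi-likelihood method). This was the smallest adjusted p of the 8 genes, at rank 704 of the 14311 genes tested, and the call held in all 16 alternatives. Without tissue 1-1 the log2 fold change was 0.40 (SE 0.05, BH-adjusted p = 2.4e-06 in edgeR). *UCN*, which overlaps *TRIM54* on the other strand, had at most 9 counts in a tissue.

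*TRIM55* (chromosome 2, 114973276 to 115009948, plus strand) encodes MuRF2, which takes part in sarcomere assembly. It was at 277 FPKM-UQ in tissue 1-1, the highest value of all 8 tissues, and at 199, 199, 215, and 188 in tissues 1-2 to 1-5. Tissues 3-1 to 3-3 were at 239.6, 240.3, and 248.9 FPKM-UQ, so that only tissue 1-1 kept the weeks from separating. The log2 fold change was 0.16 (SE 0.11, BH-adjusted p = 0.35 by edgeR's quasi-likelihood method). Without tissue 1-1 it was 0.27 (SE 0.05, BH-adjusted p = 2.2e-04 in edgeR). The call of *TRIM55* thus rested on whether tissue 1-1 was included. Because tissue 1-1 stood out in the same data, its omission adds no independent evidence.

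Ratios of estimated counts within a tissue do not depend on the scaling between tissues. The ratio of *TRIM55* to *TRIM54* was 1.498 in tissue 1-1, 0.876 to 1.07 in tissues 1-2 to 1-5, and 0.873 to 0.925 at week 3. The ratio of *TRIM63* to *TRIM54* was 0.396 ± 0.0578 (n = 5, SD) at week 1 and 0.377 ± 0.00754 (n = 3, SD) at week 3, with tissue 1-3 the highest at 0.498. The ratio of *TRIM63* to *FBXO32* was 1.22 ± 0.0799 (n = 5, SD) and 1.31 ± 0.159 (n = 3, SD). Both of these ratios overlapped between the weeks.

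**Figure D2:**
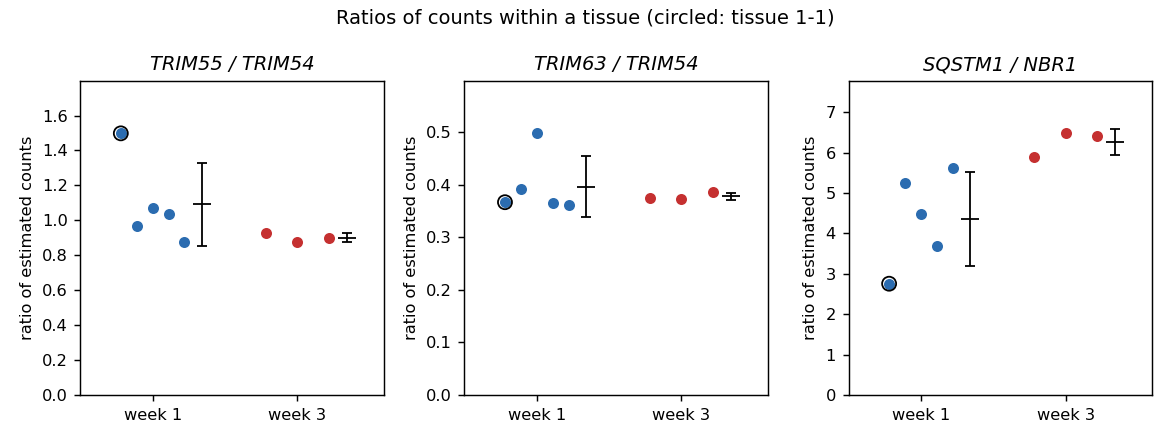
Ratios of estimated counts of gene pairs within each tissue (linear axes from 0), with week 1 in blue, week 3 in red, tissue 1-1 circled, and the mean ± SD of each week in black. *TRIM55*/*TRIM54* is 1.498 in tissue 1-1 and at most 1.07 in every other tissue, and *SQSTM1*/*NBR1* is above 5.9 in every week 3 tissue and at most 5.61 at week 1.

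*FOXO1* (chromosome 1, 171900251 to 171963537, plus strand) encodes a forkhead transcription factor that AKT keeps out of the nucleus. Its FPKM-UQ was 43.2, 37.8, 32.0, 32.8, and 34.0 in tissues 1-1 to 1-5 and 44.8, 47.8, and 48.8 in tissues 3-1 to 3-3. The weeks did not overlap, with tissue 1-1 just below tissue 3-1. The mean rose from 36.0 ± 4.62 (n = 5, SD) to 47.1 ± 2.09 (n = 3, SD), a log2 fold change of 0.38 (SE 0.10, BH-adjusted p = 0.019 by edgeR's quasi-likelihood method). Without tissue 1-1 the log2 fold change was 0.45 (adjusted p = 3.4e-05), while without tissue 1-3, 3-2, or 3-3 the adjusted p was 0.050 (just above the threshold), 0.075, and 0.081 in the same edgeR test.

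*SQSTM1* (chromosome 13, 14167413 to 14171831, minus strand) had the largest log2 fold change of the 8 genes, 0.47 (SE 0.14, BH-adjusted p = 0.027 by edgeR's quasi-likelihood method). Its FPKM-UQ was 192, 308, 288, 260.3, and 336 in tissues 1-1 to 1-5. At week 3 it was 388 in tissue 3-1, 383 in 3-2, and 391 in 3-3. The coefficient of variation was 19.8% at week 1 and 1.03% at week 3, the widest and the narrowest of the 8 genes. Without tissue 1-1 the log2 fold change was 0.37 (SE 0.06, BH-adjusted p = 6.7e-05), and without tissue 1-4, 3-1, 3-2, or 3-3 the adjusted p was 0.062 to 0.089 in the same edgeR test. With all 8 tissues the lowest week 3 tissue lay above the highest week 1 tissue, so leaving out a tissue could not make the weeks overlap. *NBR1*, a related cargo receptor that binds p62, was at 64.7 ± 5.57 FPKM-UQ (n = 5, SD) and 62.03 ± 3.35 (n = 3, SD), a log2 fold change of −0.08 (SE 0.08, BH-adjusted p = 0.55 in edgeR). The ratio of *SQSTM1* to *NBR1* counts was 2.75 to 5.61 at week 1 and 5.91 to 6.48 at week 3.

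**Figure D3:**
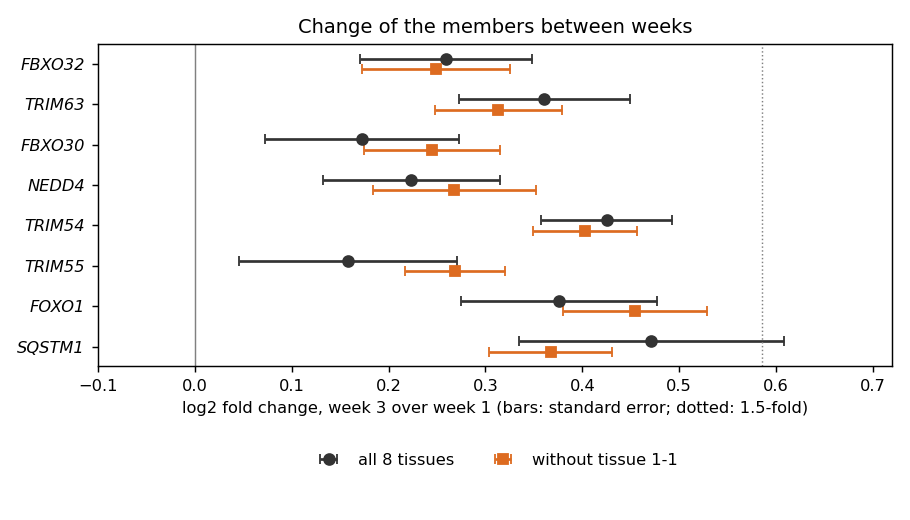
Log2 fold change of the 8 genes, week 3 over week 1, from edgeR with all 8 tissues (black circles) and without tissue 1-1 (orange squares), with bars for the standard error and a dotted line at 1.5-fold. All values are above 0 and below the 1.5-fold line, and leaving out tissue 1-1 raises *TRIM55* from 0.16 to 0.27 and lowers *SQSTM1* from 0.47 to 0.37.

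The coefficient of variation of FPKM-UQ was 6.68% (*TRIM54*) to 19.8% (*SQSTM1*) at week 1 and 1.03% (*SQSTM1*) to 8.40% (*FBXO32*) at week 3. It was smaller at week 3 for all 8 genes, but the share of all genes with this pattern was not computed. Among the 40 other genes that the naming rule took from the lists and partners, it rose for *BECN1* (2.30% to 7.09%), *MAP1LC3C*, *NFE2L2*, *PIK3R1*, and *UVRAG*. It fell for all the rest, such as *MYOD1* (13.8% to 3.00%), so the pattern is not particular to the 8. The likeness of 2 profiles was measured as the root-mean-square difference of log2 FPKM-UQ over the 8 tissues, with each gene centred on its mean. Among the 8 genes, *FBXO30* and *NEDD4* were the closest pair (0.082), *FBXO32* and *TRIM63* differed by 0.12, and *TRIM55* and *SQSTM1* were the farthest apart (0.41). Of 10548 other genes that had a symbol and averaged 1 FPKM-UQ or more, the 3 closest to *TRIM54* were *DENR* (0.036), *RAB29* (0.051), and *MAFF* (0.057), against a median of 0.29 over all genes compared. The closest to *TRIM63* were *MIEN1* (0.070) and *RAB26* (0.070). The 3 closest to *FOXO1* were *VPS53* (0.045), *AK6* (0.056), and *MYO6* (0.058), and the 3 closest to *SQSTM1* were *APOA1* (0.082), *SOCS3* (0.085), and *ACYP2* (0.087). The closest gene was *HSDL1* (0.054) for *FBXO32*, *ANO5* (0.055) for *FBXO30*, and *ATP7A* (0.031) for *NEDD4*.

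Other genes of these pathways were read from the same edgeR fit in 10 lists, which share some genes. In all, 152 of 178 such genes were tested, of which 15 were called higher and 30 lower (29.6% called, against 23.5% of all genes tested). The median log2 fold change of the 152 genes was −0.035, against −0.0065 for all genes tested. Without tissue 1-1, 34 of the listed genes were called higher and 40 lower, and with each other tissue left out, 11 to 13 higher and 19 to 27 lower.

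Genes that FOXO factors are known to induce in mammals moved in both directions. Of 19 FOXO target genes tested, 2 were called higher and 7 lower, with a median log2 fold change of −0.20. Without tissue 1-1 these counts were 3 and 9, and with each other tissue left out they were 1 to 2 and 4 to 5. *PDK4*, a kinase that restrains the entry of pyruvate into mitochondria, fell from 108 ± 12.2 FPKM-UQ (n = 5, SD) to 58.6 ± 0.983 (n = 3, SD), a log2 fold change of −0.90 (SE 0.09, BH-adjusted p = 5.4e-05 by edgeR's quasi-likelihood method). *KLF15*, a glucocorticoid-induced transcription factor, fell by 0.54 on the log2 scale, and *CDKN1B*, which encodes the cell cycle inhibitor p27, fell by 0.39. *CCNG2*, which encodes cyclin G2, rose from 87.7 ± 12.0 FPKM-UQ (n = 5, SD) to 141 ± 2.26 (n = 3, SD), a log2 fold change of 0.67. *CDKN1A*, which encodes the cell cycle inhibitor p21, had a log2 fold change of 0.31, a call that was lost without tissue 1-2, 3-1, 3-2, or 3-3 (adjusted p = 0.056 to 0.11, same edgeR test). The mitophagy receptor *BNIP3* and the stress gene *GADD45A* had log2 fold changes of −0.26 and −0.23, with adjusted p-values of 0.041 and 0.049. Those calls held in 4 and 3 of 16 alternatives, and leaving out any single tissue other than 1-1 ended both. The autophagosome genes *MAP1LC3B* and *GABARAPL1* had log2 fold changes of 0.11 and −0.10 (adjusted p = 0.27 and 0.44, same edgeR test).

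Of 20 FOXO relatives and upstream regulators tested, 1 was called higher and 7 lower, with a median log2 fold change of −0.18. *FOXO6* fell from 19.6 ± 2.63 FPKM-UQ (n = 5, SD) to 11.5 ± 1.21 (n = 3, SD), a log2 fold change of −0.78 (SE 0.13, BH-adjusted p = 0.0012 by edgeR's quasi-likelihood method). The catalytic subunits of the energy sensor AMPK moved in opposite directions. *PRKAA2* fell from 35.3 ± 3.89 FPKM-UQ (n = 5, SD) to 17.6 ± 0.964 (n = 3, SD), a log2 fold change of −1.02 (SE 0.11), and *PRKAA1* rose from 22.0 ± 0.760 to 28.1 ± 0.611, a log2 fold change of 0.34 (SE 0.08). The call of *PRKAA1* held with each tissue left out but was lost with a block for replicate number (adjusted p = 0.097 in edgeR). That of *PRKAA2* held in all 16 alternatives. *PIK3R1*, a regulatory subunit of PI3-kinase, fell by 0.79 and the insulin receptor gene *INSR* by 0.49 on the log2 scale. *PPARGC1A*, *TSC2*, and *AKT1* complete the count of 7, with log2 fold changes of −0.65, −0.29, and −0.33. Their calls were lost without single tissues, 3-1 for *PPARGC1A* (adjusted p = 0.064), 1-2, 3-2, or 3-3 for *TSC2* (up to 0.12), and 1-2, 1-3, 1-4, 3-2, or 3-3 for *AKT1* (up to 0.18, same edgeR test). *INSR*, *PPARGC1A*, *TSC2*, and *AKT1* were named after their values were seen. Without tissue 1-1, 4 genes of this list were called higher and 7 lower.

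**Figure D4:**
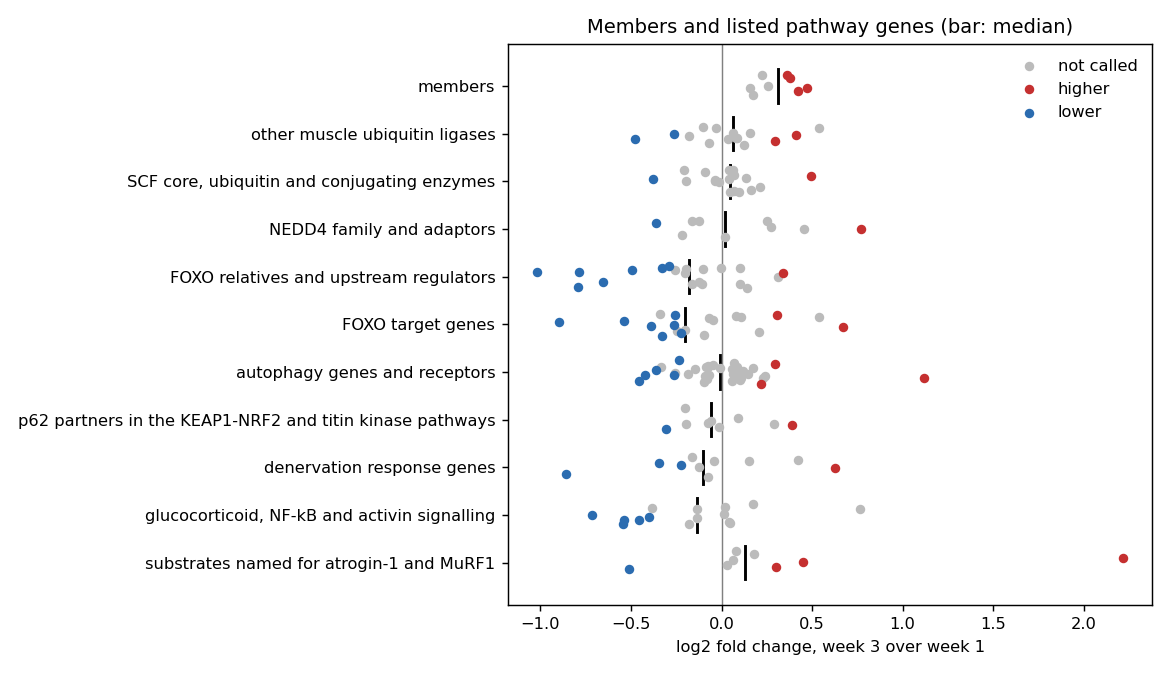
Log2 fold change, week 3 over week 1, of the 8 genes (top row) and of the tested genes of 10 pathway lists, with red for genes called higher, blue for genes called lower, grey for genes not called, and a black bar for the median of each list. The medians of the FOXO targets (−0.20) and of the FOXO relatives and upstream regulators (−0.18) lie below 0, and all 8 genes of the top row lie above 0.

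Of 15 other muscle ubiquitin ligases tested, 2 were called higher and 2 lower. *MDM2*, the ligase of p53, rose from 214 ± 11.0 FPKM-UQ (n = 5, SD) to 265 ± 5.22 (n = 3, SD), a log2 fold change of 0.30 (SE 0.06, BH-adjusted p = 0.0050 by edgeR's quasi-likelihood method). *KLHL40*, which stabilizes thin filament proteins, fell from 233 ± 15.3 to 168 ± 1.15 FPKM-UQ, a log2 fold change of −0.48 (SE 0.07, BH-adjusted p = 5.3e-04 in edgeR). *ASB2* and *KLHL41* had log2 fold changes of 0.41 and −0.26, and their calls were lost without 6 and 4 of the single tissues (adjusted p up to 0.11, same edgeR test). Among 18 genes for SCF subunits, ubiquitin, and conjugating enzymes, *RBX1*, the RING subunit of SCF ligases, rose by 0.49 and the conjugating enzyme gene *UBE2E1* had a log2 fold change of −0.38, and 16 were not called. Among 9 tested relatives and adaptors of *NEDD4*, *SMURF2*, a ligase of SMAD signaling, rose from 22.8 ± 3.04 FPKM-UQ (n = 5, SD) to 39.2 ± 2.29 (n = 3, SD), a log2 fold change of 0.77 (SE 0.11, BH-adjusted p = 3.8e-04 in edgeR). *HECW2* was called lower (log2 fold change −0.36), which was lost without 6 of the single tissues and in limma (adjusted p up to 0.15), and without tissue 1-1 there were 4 called higher in that list. *NEDD4L* and *FOXO4* had no matching symbol and were left out.

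Of 35 autophagy genes and receptors tested, 3 were called higher and 5 lower, with a median log2 fold change of −0.0067. *MAP1LC3C*, a minor LC3 gene, rose from 3.53 ± 0.207 to 7.67 ± 0.829 FPKM-UQ (n = 5 and 3, SD), a log2 fold change of 1.12 (SE 0.15, BH-adjusted p = 3.0e-04 by edgeR's quasi-likelihood method). *ATG13*, a subunit of the kinase complex that starts autophagy, fell by 0.42 and *TFEB*, the transcription factor of lysosomal genes, by 0.36 on the log2 scale. *TP53INP1*, *BECN1*, and *UVRAG* had log2 fold changes of 0.29, 0.22, and −0.46, and leaving out 2, 6, and 2 of the single tissues ended their calls (adjusted p up to 0.080, 0.16, and 0.11). Without tissue 1-1, 6 genes of this list were called higher and 8 lower, and with each other tissue left out, 1 to 3 higher and 2 to 4 lower. Of 9 tested genes of the KEAP1-NRF2 and titin kinase pathways, in which p62 takes part, 1 was called higher and 1 lower. *GCLM*, which encodes a subunit of the enzyme for glutathione synthesis, rose by 0.39, and *HMOX1*, which encodes heme oxygenase, fell by 0.31 on the log2 scale. *NFE2L2*, which encodes NRF2, had a log2 fold change of −0.06 (adjusted p = 0.53, same edgeR test), and *KEAP1* and *TTN* are not analysed here. *MAP1LC3A*, another gene called lower in the autophagy list, was named after its value was seen, and its log2 fold change was −0.23 (BH-adjusted p = 0.048 in edgeR). That call was lost in 13 of 16 alternatives, among them the omission of any single tissue other than 1-1 (up to 0.16).

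Of 10 denervation response genes tested, 1 was called higher and 3 lower. *MUSK*, the receptor kinase of the neuromuscular junction, fell by 0.86 on the log2 scale. The third gene called lower was *GADD45A*, whose call without each tissue is given above. *NCAM1*, which encodes a cell adhesion molecule, had a log2 fold change of −0.35, with an adjusted p of 0.0070 in edgeR's quasi-likelihood test and 0.051 without tissue 3-2, and without tissue 1-1 there were 4 called higher in that list. Of 15 glucocorticoid, NF-kB, and activin signaling genes, 5 were called lower. None was called higher in edgeR or DESeq2, and 1 had a positive change at an unadjusted p below 0.05. *FKBP5*, a glucocorticoid receptor cochaperone, fell from 447 ± 20.5 to 275 ± 10.3 FPKM-UQ (n = 5 and 3, SD), a log2 fold change of −0.72 (SE 0.06, BH-adjusted p = 2.0e-05 in edgeR). *ACVR2A*, an activin receptor gene, fell by 0.54 on the log2 scale. The other genes called lower were *KLF15*, given above, *TNFRSF1A*, and *NFKBIA*, of which the last pair were named after their values were seen. *TNFRSF1A*, a receptor gene of TNF, had a log2 fold change of −0.46, a call lost without tissue 3-1 (adjusted p = 0.053 in edgeR). *NFKBIA*, which encodes an inhibitor of NF-kB, had a log2 fold change of −0.40, and its call was lost in 12 of 16 alternatives, among them the omission of any single tissue other than 1-1 (up to 0.15). Without tissue 1-1, 7 genes of that list were called lower and 2 higher, and with each other tissue left out, 3 to 4 were called lower and 0 higher. Of 8 tested genes for proteins that atrogin-1 or MuRF1 tag in mammals, 3 were called higher and 1 lower. *MYL2*, a slow myosin light chain gene, rose from 4.66 ± 2.18 to 21.8 ± 1.77 FPKM-UQ (n = 5 and 3, SD), a log2 fold change of 2.22. The troponin gene *TNNI1* rose by 0.45 and *MYOD1* fell by 0.51 on the log2 scale. *TNNI2* had a log2 fold change of 0.30, and its call was lost without 6 of the single tissues and in limma (adjusted p up to 0.14).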

How the data were processed

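RNA from 8 chick muscle tissues was sequenced and processed by the authors in Partek Flow. The submitters' processing notes name STAR 2.7.3a and the build galGal6 (GRCg6a). The authors deposited estimated counts per gene, of which 80.98% are whole numbers, and a normalized signal, FPKM-UQ. In the deposited signal, every gene of a tissue has its estimated count, plus 1, scaled by the same factor (largest deviation, 0.00079%).

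The estimated counts, rounded, entered edgeR 4.0.16 in R 4.3.3 (TMM normalization, filterByExpr, quasi-likelihood test, week as the only term), with Benjamini-Hochberg adjustment over all genes tested. The standard error is the log2 fold change divided by the square root of F, and a 95% interval is 1.96 standard errors on either side. Exact permutation tests, two-sided, compared FPKM-UQ between weeks (scipy 1.17.1). The edgeR steps were also run on simulated counts, and the outcome is not given here.

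Symbols were matched exactly or through older symbols in RefSeq (191 of 222). Named were all members, in each list up to 3 genes called higher and 3 called lower with the smallest adjusted p, the best known partners and targets of the members, and the 3 genes closest in profile to each member, of which the nearest alone is given for members that were not called. Exceptions are stated, and a few genes that this rule names are not reported here. The members and lists were chosen with earlier results of these data known. Levels were not compared between genes, because no transcript lengths were used here. Alternatives comprised leaving out each tissue, DESeq2 1.42.0, upper-quartile scaling, 2 other filters, limma 3.58.1 on log2 FPKM-UQ (pseudocount 1 or 0.1), and a block for replicate number.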

Additional observations from a re-analysis of the deposited data

Results flagged for a closer look

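The 5 week 1 tissues were searched for single tissues far from the others in FPKM-UQ, over 48 genes (the 8 members and 40 other named genes). In 3 of the 48, the gap between the extreme tissue and its neighbour exceeded 0.71 of the range, and chance alone gives about 1 in 20. *FBXO32* was at 76.1 FPKM-UQ in tissue 1-3 and between 60.9 and 62.4 in the other week 1 tissues. *ASB2* was at 65.8 FPKM-UQ in tissue 1-1 and between 44.2 and 49.9 in the others. *GCLM* was at 166.9 FPKM-UQ in tissue 1-5 and between 179 and 183 in the others.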

How the results depend on the processing

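No log2 fold change of the 8 members, or of the 40 other genes that the naming rule took from the lists and partners, changed sign in any alternative. The genes called over the whole table numbered 3367, 2073 with the replicate number as a block, 2119 to 5498 with each tissue left out, and 2090 with an unadjusted p below 0.05 and a fold above 1.5. Members called higher numbered 4, 1 to 8 with each tissue left out (1 without tissue 3-2 or 3-3, 8 without tissue 1-1), and 0 by that unadjusted definition. Listed pathway genes called higher ranged from 11 to 34 and lower from 19 to 40 with each tissue left out. *FBXO32* passed the threshold with upper-quartile factors (log2 fold change 0.27, adjusted p = 0.044) and in limma with a pseudocount of 1 (0.27), with 0.1 (0.27), and with a minimum mean of 1 (0.27). With each tissue left out, log2 fold changes ranged from 0.18 to 0.32 for *FBXO32*, 0.31 to 0.42 for *TRIM63*, 0.40 to 0.45 for *TRIM54*, 0.13 to 0.24 for *FBXO30*, 0.17 to 0.27 for *NEDD4*, 0.11 to 0.27 for *TRIM55*, 0.33 to 0.45 for *FOXO1*, and 0.37 to 0.55 for *SQSTM1*. Over all 16 alternatives the lowest log2 fold change was smaller for *FBXO30* (0.061), *NEDD4* (0.16), and *FOXO1* (0.31). Deviations of same-numbered tissues from the mean of their week correlated at −0.010 to 0.025, and not every tissue correlated best with its own number. With so few tissues, these values cannot tell whether same-numbered tissues shared a harvest. With the replicate block *FOXO1* had a log2 fold change of 0.31 (adjusted p = 0.12, edgeR). Of 36 other named genes called, 24 stayed called in all 16 alternatives. Counts per kilobase were not run. The causes of these differences were not tested. Each member had at least 322 counts in every tissue, and the 95% intervals of *FBXO30* and *TRIM55* include 0.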
